A study of Mus musculus with 6 samples.

Results

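The core cardiac transcription factors considered here were *Hand1*, *Hand2*, *Gata4*, *Gata6*, *Nkx2-5*, *Tbx5*, *Tbx20*, *Mef2a*, *Mef2c* and *Irx4*. They were taken by gene symbol from a count table of 13809 genes, and all 10 were present and passed the filter on low counts. RNA was measured in hearts at embryonic day 18.5, described by the study as ventricular tissue, in 3 wild-type (WT) and 3 *Pkm1*-knockout (KO) libraries. KO embryos were homozygous for a small deletion in the *Pkm1*-specific exon of *Pkm*, which encodes the M-type pyruvate kinases PKM1 and PKM2. The deletion was made with CRISPR/Cas9 in zygotes of BDF1 hybrid mice and is carried by every cell of the embryo, so changes in the heart cannot be told apart from those that follow loss of PKM1 elsewhere. Nothing else distinguishes the genotypes in the labels, and no embryo received a treatment. The paper adds that PKM2 was downregulated in this model, maybe secondarily. It states that the phenotype may therefore involve more than the loss of PKM1. How many embryos made up a library and how many founders gave rise to the line were not given in the sources used here.

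These factors bind one another and neighbouring sites in the DNA of cardiac genes, and together they switch on contractile, ion channel and natriuretic peptide genes. HAND proteins are basic helix-loop-helix factors, GATA4 and GATA6 are zinc finger factors, TBX5 and TBX20 carry a T-box, MEF2A and MEF2C are MADS-box factors, and NKX2-5 and IRX4 are homeodomain proteins. HAND1 is known for the left ventricle, HAND2 for the right ventricle and outflow tract, and IRX4 for ventricular identity. Several of them are also made outside the cardiomyocyte, HAND2 and GATA6 among them, in endocardium, epicardium and outflow smooth muscle.

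Levels were counts scaled to 1000000 counts a library (CPM), with library sizes adjusted by the trimmed mean of M-values. The letters a, b and c name the columns of a genotype as they stand in the table and pair no libraries across genotypes. The targeted gene *Pkm* had 1294, 1296 and 1366 CPM in WT and 547, 530 and 549 CPM in KO, although these counts do not separate PKM1 from PKM2 transcripts. Library totals ranged from 15567624 to 19875546 counts, at which 3 counts equal 0.151 to 0.193 CPM. WT c stood apart from the other WT libraries: the chi-square per degree of freedom over genes was 3.24 and 3.76 for its pairs, 1.56 for WT a with WT b and 1.62 to 1.88 among KO libraries. Pairs of a WT with a KO library had 15.5 to 18.7. The p-values of edgeR below rest on the small spread among libraries of a genotype. They do not show how far embryos in general would differ. No KO library held a count of the Y-linked *Kdm5d*, *Uty*, *Ddx3y* or *Eif2s3y* (0 in each), and *Xist* was at 5.26 CPM in WT against 2285 CPM in KO, so embryo sex and genotype cannot be told apart in any comparison below. All 22 immediate early genes tested were lower in KO, with a summed level of 2805 to 3027 CPM in WT and 645 to 656 CPM in KO. In bulk tissue, fewer cells of a type and less RNA per cell cannot be told apart.

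The first question was which of the 10 factors differed between WT and KO hearts. The largest change was in *Hand2*, whose level fell by 43.8% in KO. *Gata6* fell by 19.8%, *Mef2a* fell by 9.86% and *Tbx20* fell by 9.51%. By edgeR's quasi-likelihood test with adjustment over 13804 genes, these 4 of 10 factors were lower in KO at an adjusted p under 0.05, where 15.7% of all tested genes were lower. None was higher, where 14.6% of all genes were. Not all of these falls were rare in size: 8.63% of all tested genes had a lower log2 fold change than *Gata6*, 20.7% than *Mef2a* and 21.5% than *Tbx20*. All KO libraries lay below all WT libraries for 5 of the 10, namely the same 4 and *Mef2c*, against 21.4% of all genes, and no factor had all KO libraries above WT, against 21% of all genes. The median log2 fold change of the 10 was -0.14, and that of all tested genes was 0.00172. Summed over the 10 factors, WT libraries held 2240 to 2266 CPM and KO libraries 1997 to 2026 CPM, so the summed level did not overlap between genotypes. Much of this sum was *Tbx20* and *Mef2a*, at 755 and 517 CPM in WT, both among the 4 called. The sum therefore adds nothing about the factors that were not called.

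**Figure D1:**
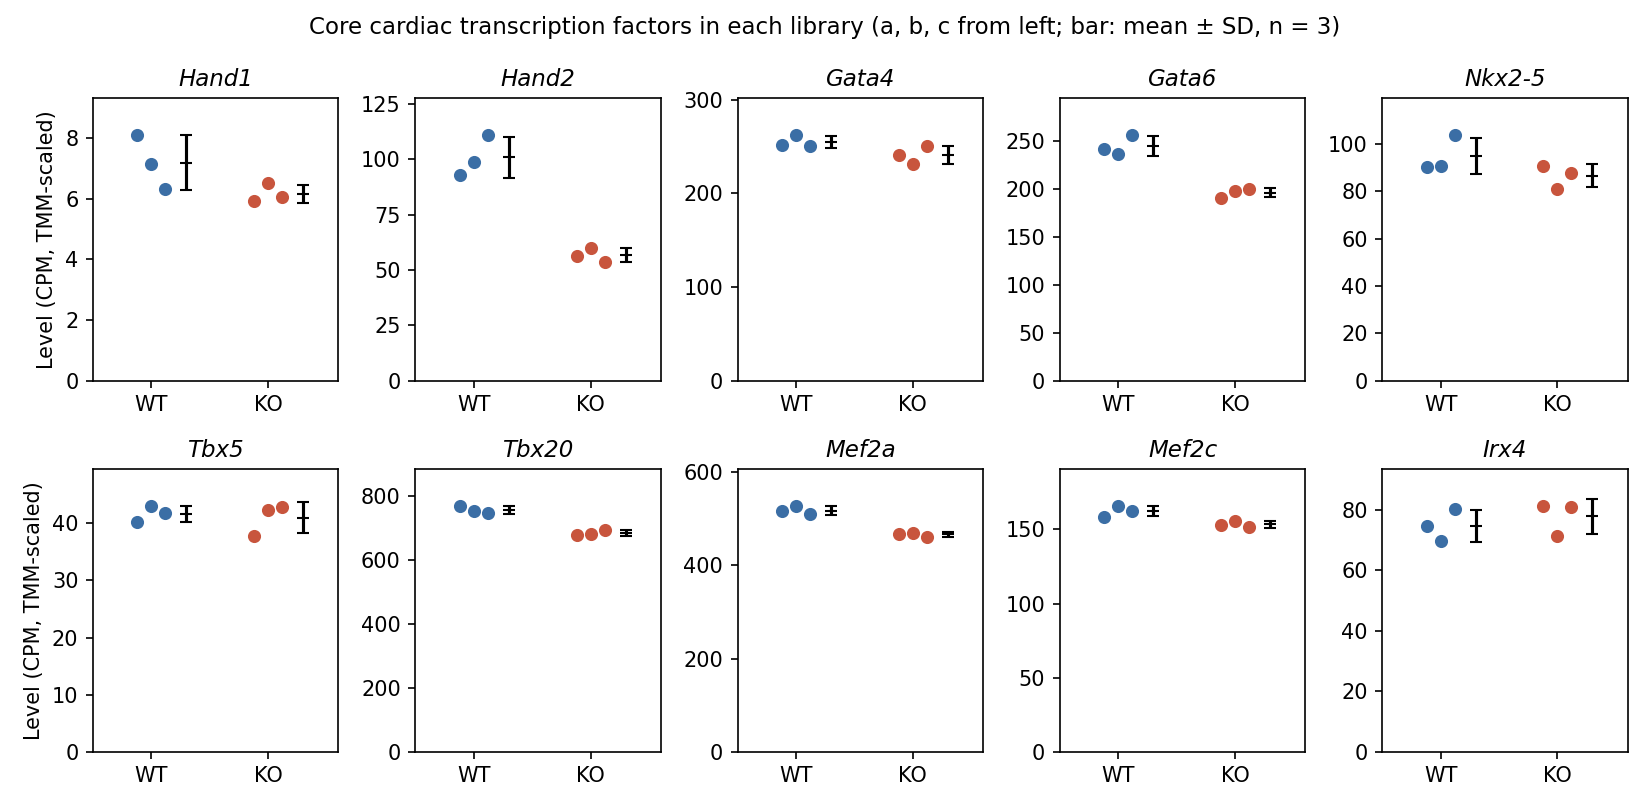
Level of each factor in every library (CPM, axis from 0), WT and KO side by side, with points for libraries a to c and a bar for the mean ± SD of 3. *Hand2* lies between 92.8 and 111 CPM in WT and between 53.7 and 59.7 CPM in KO, whereas the points of *Tbx5*, *Irx4* and *Hand1* overlap.

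The HAND factors came first because they held the largest difference. *Hand2* (ENSMUSG00000038193) lies on the plus strand of chromosome 8 at 57320983 to 57324633 of GRCm38, and *Hand1* (ENSMUSG00000037335) on the minus strand of chromosome 11 at 57828705 to 57832818. RefSeq promoter sequences of the same build were matched by symbol for 6 of the 10 factors, *Hand2*, *Tbx20*, *Irx4*, *Mef2a*, *Mef2c* and *Nkx2-5*. The 250 bases before the start site are shown for *Hand2*, which fell most, and for *Tbx20*, which had the largest counts of the factors that fell. The *Hand2* window is chr8:57320733-57320982, plus strand, and contains an exon of the antisense gene *Hand2os1*. The *Tbx20* window is chr9:24774304-24774553, minus strand. Capitals mark the matches to any of the motifs listed afterwards, on either strand.
Hand2: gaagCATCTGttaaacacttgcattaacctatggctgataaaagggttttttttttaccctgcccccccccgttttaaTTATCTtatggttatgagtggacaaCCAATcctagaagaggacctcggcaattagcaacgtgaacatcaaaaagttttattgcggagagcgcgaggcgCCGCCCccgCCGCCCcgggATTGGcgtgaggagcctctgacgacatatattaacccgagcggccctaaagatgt
Tbx20: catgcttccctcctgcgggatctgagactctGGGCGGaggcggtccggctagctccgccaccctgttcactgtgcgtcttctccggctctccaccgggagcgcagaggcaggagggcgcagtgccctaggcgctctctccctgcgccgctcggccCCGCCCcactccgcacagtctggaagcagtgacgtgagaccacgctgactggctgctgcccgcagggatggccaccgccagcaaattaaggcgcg

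In the *Hand2* window the motifs CCAAT, the box bound by NF-Y, and GGGCGG, the GC box bound by Sp factors, each matched at 2 places. AGATAA, a form of the site of the GATA factors, and CATCTG, an E box bound by HAND dimers, each matched once. Other forms of the GATA site, such as TGATAA, were not searched and are not in capitals. The CCAAT matches began 147 and 55 bases before the start. The *Tbx20* window held GGGCGG at 2 places and none of the other motifs, and the matches in each window did not overlap. Over promoters of 27025 genes, CCAAT was found in 37.5%, GGGCGG in 35.4%, CATCTG in 16.3% and AGATAA in 11.4%, and among the 6 factors with a promoter they were found in 2, 4, 2 and 1. The sites searched for MEF2 (CTA and TAG with 4 bases between them), for NKX2-5 (AAGTG, with a T before the preceding base) and for T-box factors (AGGTGTGA) were in none of the 6, and in 3.70%, 11.4% and 1.30% of all genes. A match in these windows is a description only.

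*Hand2* stood at 92.8, 98.8 and 111 CPM in the WT libraries and at 56.5, 59.7 and 53.7 CPM in the KO libraries. The highest KO library was below the lowest WT library, which was 1.55 times higher. The means were 101 ± 9.27 CPM in WT and 56.6 ± 3.04 CPM in KO (SD, n = 3 each). Its log2 fold change was -0.83 ± 0.0559 (SE), with a 95% interval of -0.95 to -0.72 and an adjusted p of 4.93e-12 by edgeR's quasi-likelihood test, and 1.95% of all tested genes had a lower one. Within WT the highest value was in WT c, the library that stood apart, and without it the log2 fold change was -0.76. *Hand1* was the least abundant of the 10, with 96 to 140 counts a library. It had 8.11, 7.14 and 6.31 CPM in WT and 5.93, 6.5 and 6.06 CPM in KO, and the genotypes overlapped. Its log2 fold change of -0.23 had a 95% interval of -0.49 to 0.04 and an adjusted p of 0.185 in edgeR, so a fall as large as that of *Gata6* lies within the interval, while one as large as that of *Hand2* does not. Without WT a it was -0.14. The counting error alone of the lowest *Hand1* library was 10.2% of its level, close to the spread of 12.5% (SD) among WT libraries.

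The *Hand2* locus also holds RNAs made from its neighbourhood. *Hand2os1*, which in the reference annotation overlaps *Hand2* by 3251 bp on the opposite strand, was not analysed here, and 15.8% of the 50-base words of *Hand2* transcripts also occur in it. The strand setting of the counting was not given in the sources used here, so *Hand2* counts may include reads from that antisense RNA. The lincRNA *5033428I22Rik*, which starts 7484 bp beyond *Hand2*, was at 8.83 CPM in WT against 8.99 CPM in KO, with a log2 fold change of 0.03 and an adjusted p of 0.875 in edgeR.

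The genes with the most similar profile to *Hand2* were sought among the 11043 genes that averaged 5 CPM or more, by the Euclidean distance between log2 CPM values centred for each gene over the 6 libraries. The nearest was *Rgs2*, a regulator of G protein signalling, at a distance of 0.0788, with 29.6 CPM in WT and 16.4 CPM in KO. Next came *Ifitm3*, an interferon-induced membrane protein, at 0.134, and *Sik1*, a salt-inducible kinase, at 0.135. Their log2 fold changes were -0.85, -0.85 and -0.81, beside -0.83 for *Hand2*. This likeness follows from the selection by distance over the same 6 libraries and is no separate result. *Sik1* was also among the kinases listed for their action on class II histone deacetylases, which hold MEF2 factors inactive.

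The GATA factors were next. GATA4 and GATA6 are partly redundant in the heart, and both bind the promoters of natriuretic peptide and contractile genes. *Gata6* had 242, 237 and 257 CPM in WT and 191, 198 and 200 CPM in KO. The genotypes did not overlap, with means of 245 ± 10.4 CPM in WT and 196 ± 4.56 CPM in KO (SD, n = 3 each). The log2 fold change was -0.32 ± 0.0354 (SE), with a 95% interval of -0.39 to -0.25 and an adjusted p of 8.96e-08 in edgeR. *Gata4* had 252, 263 and 251 CPM in WT and 241, 232 and 251 CPM in KO. The highest KO library reached the lowest WT library, the log2 fold change was -0.08, with a 95% interval of -0.15 to -0.01 for this gene alone, and the adjusted p of 0.0893 in edgeR missed the threshold. Without WT c the adjusted p was 0.0138 and without KO c 0.0460, so the call of *Gata4* depended on single libraries. *Gata6* (ENSMUSG00000005836, chromosome 18 at 11052064 to 11085635, plus strand) overlaps the antisense transcript *1010001N08Rik* by 504 bp, which was at 36.0 CPM in WT against 36.7 CPM in KO and had an adjusted p of 0.804 in edgeR. *Gata4* (ENSMUSG00000021944) lies on the minus strand of chromosome 14 at 63198922 to 63271692.

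Of the T-box factors, TBX5 activates conduction, atrial and septal genes, and TBX20 acts both as activator and as repressor in chamber myocardium and endocardium. *Tbx20* (ENSMUSG00000031965, chromosome 9 at 24718138 to 24774303, minus strand) had 767, 753 and 745 CPM in WT and 677, 681 and 692 CPM in KO. Its libraries spread little within a genotype, 755 ± 11.4 CPM in WT and 683 ± 8.0 CPM in KO (SD, n = 3 each), and the genotypes were apart by a small step. The log2 fold change was -0.14 ± 0.0255 (SE), with a 95% interval of -0.20 to -0.09 and an adjusted p of 9.38e-05 in edgeR. *Tbx5* (ENSMUSG00000018263, chromosome 5 at 119832668 to 119885219, plus strand) had 40.2, 43.0 and 41.9 CPM in WT and 37.8, 42.3 and 42.8 CPM in KO. The genotypes overlapped, and the log2 fold change of -0.03 had a 95% interval of -0.15 to 0.10 and an adjusted p of 0.770 in edgeR.

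MEF2A and MEF2C bind AT-rich sites in muscle genes, MEF2C from the earliest stages of heart formation and MEF2A as a main form of the perinatal myocardium. *Mef2a* (ENSMUSG00000030557, chromosome 7 at 67231163 to 67372858, minus strand) had 515, 526 and 509 CPM in WT and 468, 469 and 460 CPM in KO. The genotypes did not overlap, at 517 ± 8.88 CPM in WT against 466 ± 4.74 CPM in KO (SD, n = 3 each). The log2 fold change was -0.15 ± 0.0273 (SE), with a 95% interval of -0.21 to -0.09 and an adjusted p of 1.36e-04 in edgeR. *Mef2a* shares 76168 bp with *Lysmd4*, a gene on the other strand that was at 13.7 CPM in WT against 14.3 CPM in KO, with an adjusted p of 0.642 in edgeR, and 5.39% of the 50-base words of *Mef2a* occur in other genes. *Mef2c* (ENSMUSG00000005583, chromosome 13 at 83504034 to 83667080, plus strand) had 159, 166 and 162 CPM in WT and 153, 156 and 151 CPM in KO. All KO libraries were below all WT libraries by a narrow margin, yet the log2 fold change of -0.08 missed the threshold, with a 95% interval of -0.15 to -0.01 for this gene alone and an adjusted p of 0.0805 in edgeR. It was 0.0483 without WT c.

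The homeodomain factors gave no call. NKX2-5 is required for growth of the early heart tube and keeps chamber and conduction programmes apart, and IRX4 is restricted to the ventricles. *Nkx2-5* (ENSMUSG00000015579, chromosome 17 at 26838664 to 26845009, minus strand) had 90.5, 90.7 and 104 CPM in WT and 90.7, 81.2 and 88.0 CPM in KO. KO a lay within the WT range, and the log2 fold change of -0.13 had a 95% interval of -0.23 to -0.02 for this gene alone and an adjusted p of 0.0597 in edgeR. Leaving out WT a gave 0.0281 and WT b 0.0452, each of which leaves WT c with 1 other WT library, and leaving out WT c gave 0.279. *Irx4* (ENSMUSG00000021604, chromosome 13 at 73260479 to 73269608, plus strand) was the only factor with a positive log2 fold change, 0.06, with a 95% interval of -0.05 to 0.18 and an adjusted p of 0.405 in edgeR. Its libraries had 74.6, 69.6 and 80.2 CPM in WT and 81.2, 71.3 and 80.9 CPM in KO, and they overlapped widely. The log2 fold change of *Irx4* was 0.010 without WT b, 0.031 without KO a, 0.035 without KO c, 0.11 without WT c and 0.12 without KO b, and that of *Tbx5* was also positive without KO a or with scaling by library totals only.

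**Figure D2:**
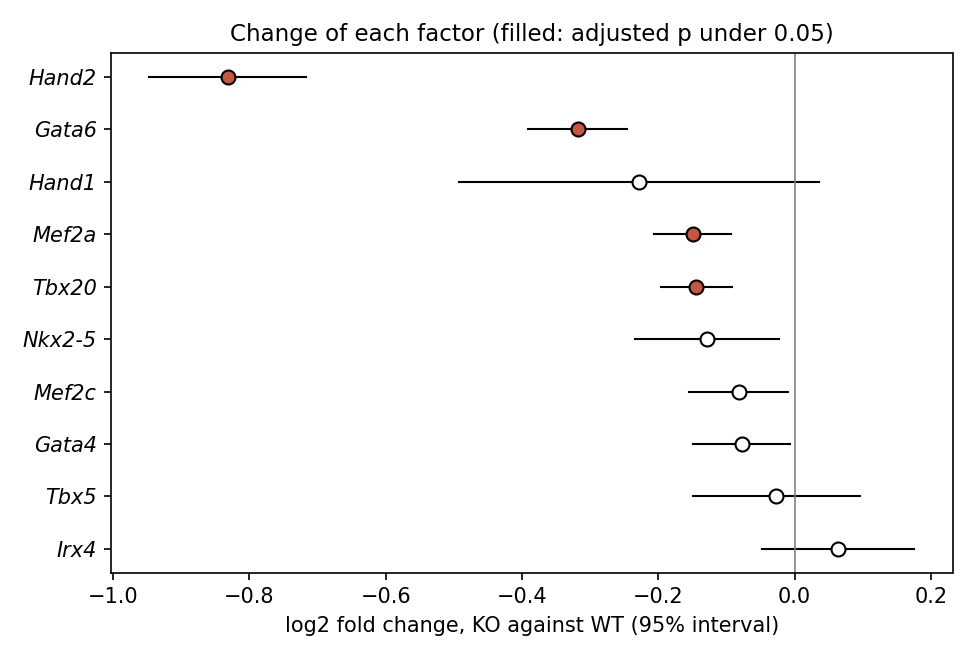
log2 fold change of each factor, KO against WT, with its 95% interval as a line and filled points at an adjusted p under 0.05. *Hand2* at -0.83 lies apart from *Gata6* at -0.32, and the intervals of *Hand1*, *Tbx5* and *Irx4* include 0.

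Levels of different genes were compared as CPM per kb of annotated exon, which takes the gene's length into account. In WT the order from the highest was *Gata4* at 65.3, *Tbx20* at 62.9, *Nkx2-5* at 55.3, *Hand2* at 42.9, *Gata6* at 37.7, *Mef2a* at 35.2, *Irx4* at 28.7, *Mef2c* at 10.3, *Tbx5* at 8.91 and *Hand1* at 3.60 CPM per kb. No neighbours in this order overlapped between their libraries. In KO the order was *Gata4* at 61.8, *Tbx20* at 56.9, *Nkx2-5* at 50.4, *Mef2a* at 31.7, *Gata6* at 30.2, *Irx4* at 29.9, *Hand2* at 24.1, *Mef2c* at 9.76, *Tbx5* at 8.76 and *Hand1* at 3.09 CPM per kb. *Hand2* thus stood at rank 4 in WT and at rank 7 in KO, where it was below *Mef2a*, *Gata6* and *Irx4* in every library, and only *Gata6* and *Irx4* overlapped as neighbours. The order depends on the length taken for each gene: with the longest transcript in place of all exons, *Mef2a* came at rank 1 in both genotypes, and *Hand2* at rank 6 in WT and 8 in KO.

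**Figure D3:**
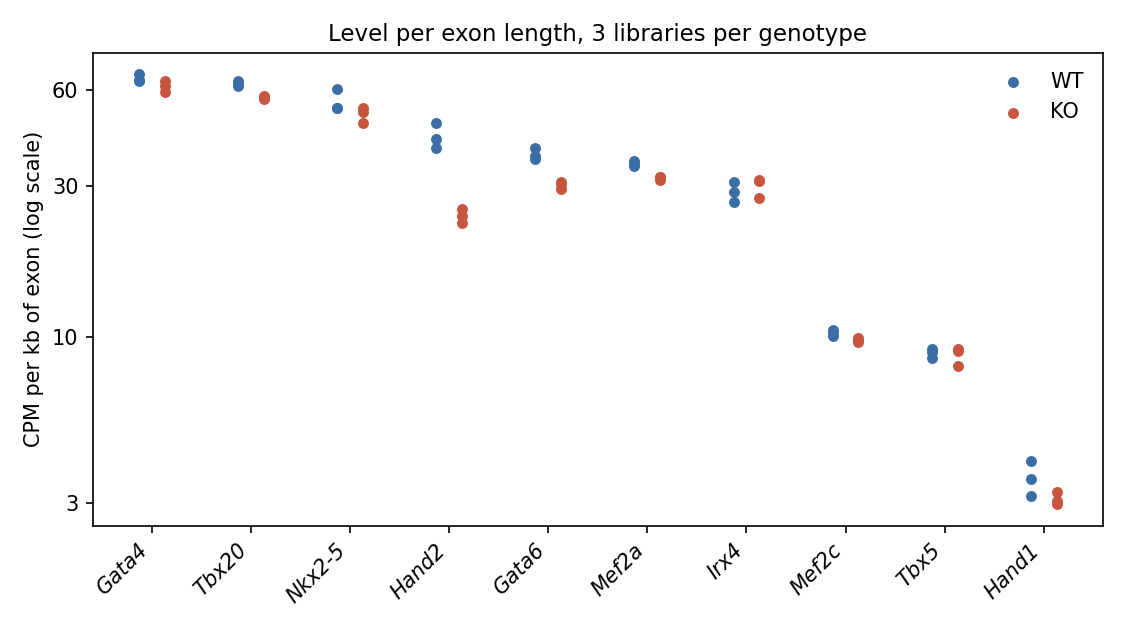
Level of each factor per kb of exon (CPM per kb, log axis), ordered by the WT mean, with a point for each of 3 libraries per genotype. *Hand2* drops from 42.9 in WT to 24.1 in KO, whereas *Gata4* is highest in both genotypes, at 65.3 and 61.8.

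Ratios of related factors within a library do not depend on scaling between libraries, and 4 were computed from raw counts. *Hand2* to *Hand1* was 11.4, 13.8 and 17.6 in WT and 9.52, 9.18 and 8.85 in KO. The KO libraries were below all WT libraries and closer together, 14.3 ± 3.10 in WT and 9.18 ± 0.334 in KO (SD, n = 3 each), a log2 difference of -0.62. The highest WT ratio was that of WT c, the library that stood apart, which held the lowest *Hand1* count, 96. It widened both the WT spread and the log2 difference. *Gata4* to *Gata6* was 1.04, 1.11 and 0.976 in WT and 1.26, 1.17 and 1.26 in KO, a log2 difference of 0.24 without overlap. *Mef2c* to *Mef2a* was 0.314 ± 0.00544 in WT and 0.329 ± 0.00252 in KO, also without overlap, at a log2 difference of 0.07. Each of these 3 had the smallest p that 3 against 3 libraries allow in a two-sided exact permutation test, 0.1, which is 0.133 after adjustment over the 4 ratios. *Tbx5* to *Tbx20* was 0.0552 ± 0.00248 in WT and 0.0600 ± 0.00351 in KO and overlapped, with an exact permutation p of 0.3 (0.3 adjusted).

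**Figure D4:**
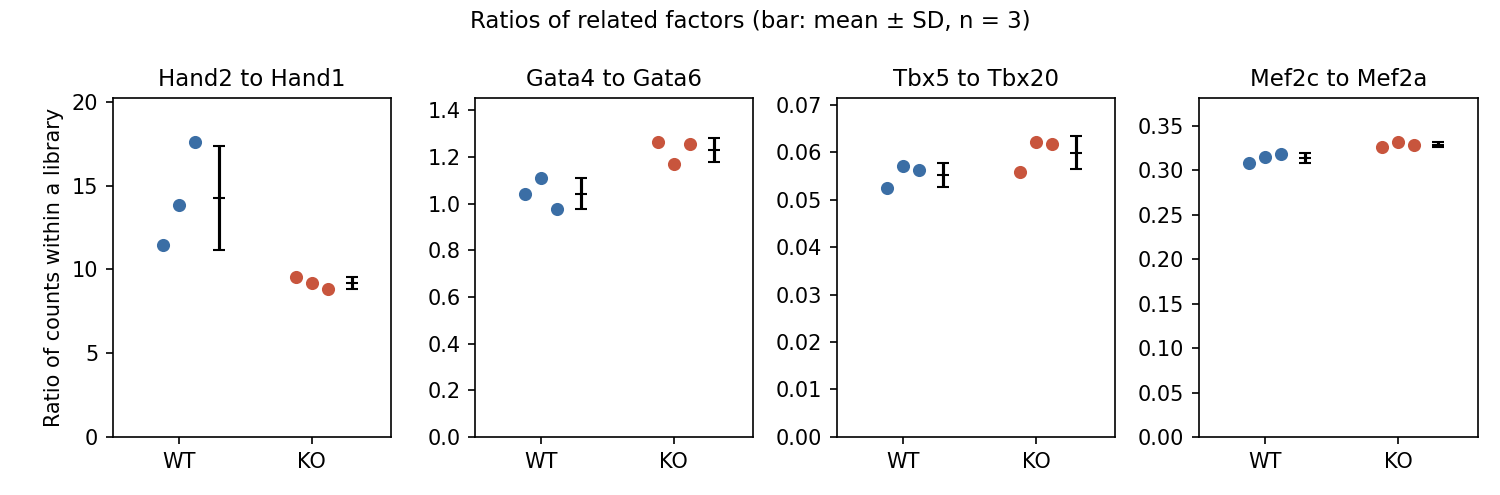
Ratio of raw counts of related factors within each library (axes from 0), with points for 3 WT and 3 KO libraries and bars for the mean ± SD. The *Hand2* to *Hand1* ratio spans 11.4 to 17.6 in WT and 8.85 to 9.52 in KO, and the *Tbx5* to *Tbx20* ratio overlaps between genotypes.

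Other cardiac transcription factors and cofactors, chosen for their known roles beside the core factors, were counted in the same fit. Of 36 tested, 14 were lower and 6 higher in KO, beside 15.7% lower and 14.6% higher of all tested genes, with a median log2 fold change of -0.06. The lower ones included *Cited2*, a co-activator of the CBP/p300 type of complex, at 51.1 CPM in WT against 21.8 CPM in KO (log2 fold change -1.23 ± 0.0591, SE). *Tbx3*, a repressor of working myocardium genes in the conduction system, and *Hey1*, a Notch-responsive repressor, had log2 fold changes of -0.58 ± 0.0680 and -0.61 ± 0.0846. *Hey2*, a related repressor that is enriched in compact myocardium, was higher, at 84.7 CPM in WT against 107 CPM in KO (0.33 ± 0.0436). *Casz1* and *Meis2* were also higher, at 0.15 ± 0.0353 and 0.19 ± 0.0513. *Hey1* and *Hey2* therefore moved in opposite directions. The number lower was 9 without KO a and with scaling by library totals only, and the number higher was 3 without WT b.

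Class II histone deacetylases bind MEF2 factors and silence their targets, until kinases drive them out of the nucleus. Of 18 chromatin partners and class II deacetylases tested, 3 were lower and 2 higher, near the 15.7% and 14.6% of all tested genes, with a median log2 fold change of -0.04. *Hdac5* was at 137 CPM in WT against 88.5 CPM in KO (-0.63 ± 0.0425), *Tcf4* was lower by a smaller step (-0.14 ± 0.0336), and *Ep300* and *Smarcd3* were higher (0.19 ± 0.0392 and 0.16 ± 0.0468). *Hdac4*, *Hdac7* and *Hdac9* had log2 fold changes of -0.03, 0.03 and -0.03 and none passed the test. Of 15 kinases that act on these deacetylases and on MEF2, *Sik1* alone was lower, at 135 CPM in WT against 77.0 CPM in KO (-0.81 ± 0.0438), and *Mapk14* and *Camk2g* were higher (0.21 ± 0.0473 and 0.11 ± 0.0397). The share of kinases called in either direction was below that of all genes. Their median was 0.03, and the number higher was 1 without WT b, KO a or KO c, while the number lower was 2 without KO c.

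Target genes that the core factors are known to bind or activate included contractile, calcium-handling and natriuretic peptide genes. Of 32 tested, 19 were lower and 7 higher, beside the same 15.7% and 14.6% of all genes, with a median log2 fold change of -0.16. Several of these genes were very abundant, and small steps pass at such levels. *Myh7*, at 19536 CPM in WT, was counted as higher at a log2 fold change of 0.05. The share of all genes is therefore not a background of like level, and the share among equally abundant genes was not counted. *Lmod2*, which lengthens thin filaments, was at 298 CPM in WT against 97.8 CPM in KO (-1.60 ± 0.0388). *Nppb*, the brain natriuretic peptide gene, was at 318 CPM in WT against 183 CPM in KO (-0.80 ± 0.0321), and *Myh6*, the alpha myosin heavy chain, had a log2 fold change of -0.46 ± 0.0198. *Nppa*, the atrial natriuretic peptide gene that lies beside *Nppb*, was higher, at 372 CPM in WT against 597 CPM in KO (0.68 ± 0.0275). *Myl7*, the atrial myosin light chain, and *Slc8a1*, the sodium-calcium exchanger, were also higher (0.75 ± 0.0555 and 0.16 ± 0.0190). The neighbouring natriuretic peptide genes thus moved in opposite directions. Whether any of these genes moved because of a core factor was not tested.

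Signals that induce the factors, such as BMP, FGF, neuregulin and endothelin, had 3 genes lower and 5 higher of 23 tested, beside 15.7% and 14.6% of all tested genes, and a median of 0.02. *Edn1*, the endothelin gene that acts upstream of *Hand2* in the outflow tract and pharyngeal arches, was at 21.0 CPM in WT against 9.47 CPM in KO (-1.15 ± 0.0884). *Smad1* and *Fgfr1* were lower (-0.45 ± 0.0603 and -0.16 ± 0.0556), and *Bmp7*, *Nrg1* and *Smad5* were higher (0.36 ± 0.0454, 0.60 ± 0.147 and 0.18 ± 0.0459). *Bmp4* and *Bmp2*, inducers of early cardiac genes, were at 3.85 and 3.44 CPM in WT and at 3.79 and 3.27 CPM in KO and did not pass the test. The number of higher signals was 3 without WT a, KO a or KO b. Of 3 RNAs encoded beside the core factors, the microRNA gene *Mir133a-1*, which lies 269087 bp from *Gata6*, was lower, at 3.33 CPM in WT against 1.58 CPM in KO (-1.08 ± 0.238). These levels are low, at 1.06, 1.64 and 2.04 CPM in the KO libraries. Counts at this gene in total RNA do not separate the mature microRNA from longer transcripts, so they give no level of the microRNA itself.

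**Figure D5:**
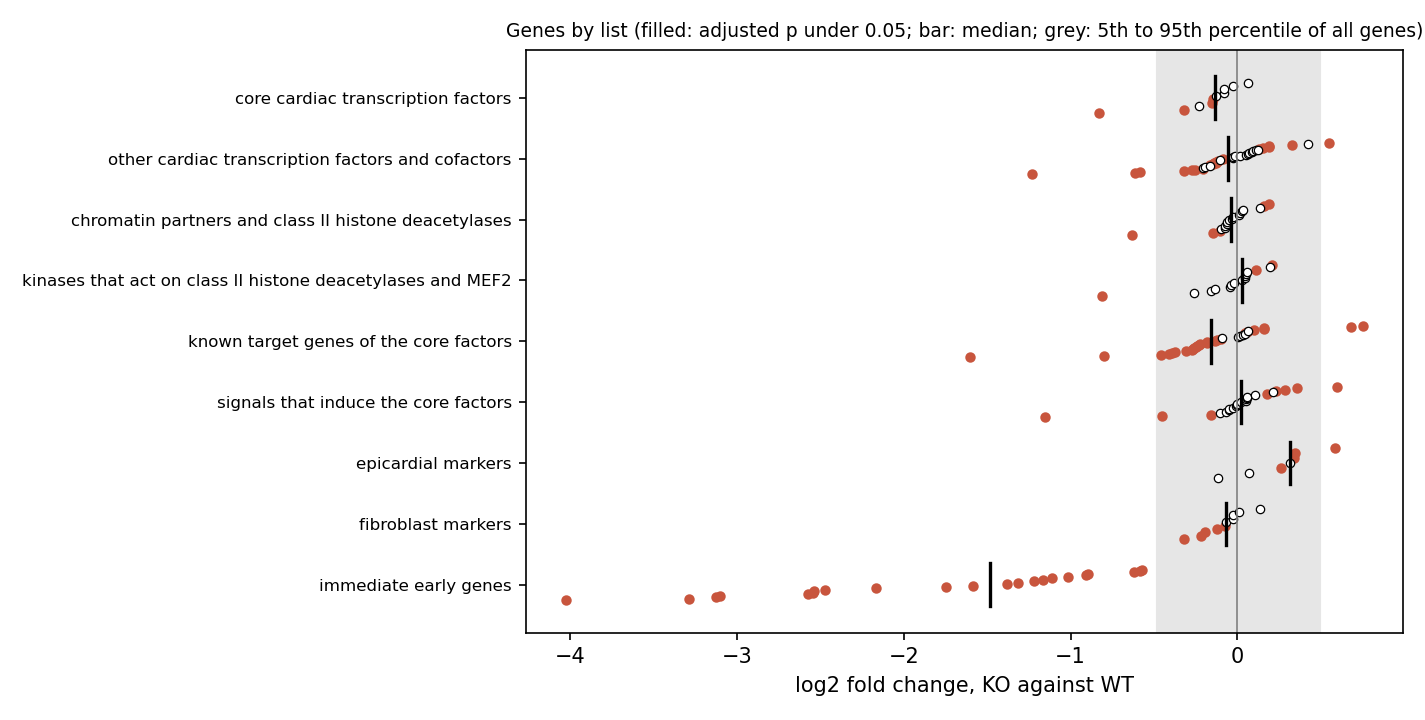
log2 fold change of every tested gene by list, KO against WT, filled at an adjusted p under 0.05, with the median as a bar and the 5th to 95th percentile of all genes in grey. The core factors have a median of -0.14 with *Hand2* at -0.83 as the outermost, and the 22 immediate early genes have a median of -1.48.

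Markers of the cell types a heart sample can hold were measured beside the factors. The ventricular, atrial and compact lists themselves include *Irx4*, *Tbx5*, and *Nkx2-5* with *Tbx20*. *Ttn*, the ventricular myocyte marker with the highest level, was at 78884 CPM in WT against 76438 CPM in KO (log2 fold change -0.045 ± 0.0111, SE). *Myl2*, which marks ventricular myocytes, was at 5247 CPM in WT against 4631 CPM in KO. The marker counts below stand beside 15.7% lower and 14.6% higher of all tested genes. Of 9 ventricular myocyte markers 6 were lower and 2 higher. Summed levels of the 9 were 112475 to 115498 CPM in WT and 109477 to 110594 CPM in KO. *Hey2* (0.33 ± 0.0436) and *Myh7* (0.05 ± 0.0166) were the 2 higher. Here too, the share among equally abundant genes was not counted. Of 10 atrial markers 1 was lower and 4 higher, with summed levels of 705 to 713 CPM in WT and 1110 to 1133 CPM in KO. Most of this sum was *Nppa*, at 372 CPM in WT against 597 CPM in KO, and *Myl4*, at 142 CPM against 305 CPM. *Nppa* is also on the trabecular list, and *Sln*, a further listed atrial marker, was not tested. The higher ones were *Myl4* (log2 fold change 1.10 ± 0.0363, SE), *Myl7*, *Nppa* and *Dkk3* (0.46 ± 0.0792), the lower one was the potassium channel gene *Kcna5* (-0.85 ± 0.0706), and *Nr2f2*, which defines atrial identity, did not pass, at 27.8 CPM in WT against 29.0 CPM in KO. Fibroblast markers were lower for 5 and higher for 0 of 10, with 5082 to 5096 CPM in WT and 4654 to 4739 CPM in KO. *Col3a1*, *Dcn*, *Lum*, *Postn* and *Fn1* were the lower ones. *Pdgfra*, *Tcf21* and *Ddr2* did not pass, at log2 fold changes of -0.02, 0.01 and 0.14, and neither did *Col1a1* or *Col1a2*. Epicardial markers were higher for 4 and lower for 0 of 7, with 102 to 108 CPM in WT and 120 to 124 CPM in KO. Single libraries moved these counts: fibroblast markers were lower for 2 without WT a or WT b and for 3 without KO b or KO c, and higher for 1 without WT c. Epicardial markers were higher for 2 without WT b or KO a, and ventricular markers for 1 without WT a, WT b, KO a or KO c.

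The lists that follow also stand beside 15.7% lower and 14.6% higher of all tested genes. Endothelial and endocardial markers were lower for 3 and higher for 3 of 12 (1678 to 1694 CPM in WT, 1668 to 1704 CPM in KO). Smooth muscle and pericyte markers were lower for 3 and higher for 1 of 9 (1055 to 1097 CPM in WT, 1039 to 1046 CPM in KO). Members within these lists went both ways, such as *Egfl7* at 0.55 ± 0.0423 and *Cdh5* at -0.22 ± 0.0308 (log2 fold change ± SE), and *Myh11* at -0.47 ± 0.0716, and *Acta2*, which did not pass, held 568 CPM of the smooth muscle sum in WT and 576 CPM in KO. Pacemaker and conduction markers were lower for 3 of 7, compact myocardium markers lower for 1 and higher for 2 of 6, and trabecular markers lower for 2 and higher for 2 of 7. Without WT a or WT b, compact markers were lower for 2, and without WT a, WT b, KO a or KO c trabecular markers were higher for 1. Immune markers were lower for 1 of 9, erythroid markers lower for 1 and higher for 1 of 4, and the 1 neural crest marker tested did not pass. The numbers lower among immune and compact myocardium markers lay near the share of all genes. No listed marker that was tested had 0 counts in all libraries. The part of cell composition, of embryo sex and of the immediate early genes in the difference of *Hand2*, *Gata6*, *Tbx20* and *Mef2a* was not tested.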

How the data were processed

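Total RNA was depleted of ribosomal RNA, sequenced as paired ends and, per the submitters' processing notes, handled with cutadapt 1.18, HISAT2 and StringTie on mm10. The counting program, its annotation and its strand setting were not given in the sources used here. Unnormalised read counts of 6 libraries, 1 line a gene symbol, were deposited by the authors. The same table holds log2 values (fold changes and average CPM) and p-values that the authors deposited from their own comparison, and these were not used. Replicates are biological per the study's methods, but column names carry no replicate number.

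The whole table was analysed in R 4.3.3 with edgeR 4.0.16: filterByExpr (13804 of 13809 genes kept), trimmed mean of M-values scaling, and the quasi-likelihood test, in which genotype was the single factor. P-values were adjusted by Benjamini-Hochberg over all tested genes, with a threshold of 0.05. Intervals are 95%, for single genes, and cover these 6 libraries. Coordinates, exon lengths and overlaps came from the GENCODE annotation of GRCm38, and promoters from RefSeq on GRCm38.p6. Ratios were compared by two-sided exact permutation. The method was also run on simulated counts, with changes larger than those of *Gata6*, *Tbx20* and *Mef2a* and in fewer genes than were called here. That run does not speak to changes as small as theirs. Alternatives used DESeq2 1.42.0, limma 3.58.1, other edgeR tests, scalings and filters, and left out each library.

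The 10 factors and the other lists were chosen with earlier results of these data known. From each other list of the pathway, the 3 genes with the smallest adjusted p in each direction were named, and for the factor with the largest fall the 3 genes of nearest profile. A gene that this rule would name is not reported here. *Pkm* was named as the target. *Hdac4*, *Hdac7*, *Hdac9*, *Bmp2*, *Bmp4*, *Nr2f2*, *Egfl7*, *Cdh5*, *Myh11*, *Myl4*, *Dkk3*, *Kcna5* and the sex-linked genes were named after their values were seen. The same holds for *Ttn*, *Myl2* and *Myh7* among the ventricular markers and for the 10 fibroblast markers.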

Additional observations from a re-analysis of the deposited data

How the results depend on the processing

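*Hand2*, *Gata6*, *Tbx20* and *Mef2a* were lower in KO under all 15 alternatives, with log2 fold changes of -0.89 to -0.76, -0.34 to -0.27, -0.16 to -0.10 and -0.16 to -0.10. The number of factors lower was 4 in the 9 alternatives that kept all libraries and 4 to 6 when one was left out. With scaling by library totals only, *Tbx5* changed sign (0.021), *Gata4*, *Mef2c*, *Nkx2-5* and *Irx4* were at -0.030, -0.034, -0.081 and 0.11, 1527 genes were lower and 2911 higher (65.6% of calls higher, against 48.1%), and the median of all genes was 0.0492. DESeq2 called 1639 genes lower and 1363 higher, and over all alternatives 33 to 41 other pathway genes were lower and 15 to 32 higher.

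Leaving out 1 library at a time gave log2 fold changes of -0.107 to -0.050 for *Gata4*, -0.165 to -0.064 for *Nkx2-5*, -0.099 to -0.068 for *Mef2c*, -0.307 to -0.137 for *Hand1*, 0.010 to 0.120 for *Irx4* and -0.061 to 0.029 for *Tbx5*, with adjusted p under 0.05 for *Gata4* without WT c or KO c, *Nkx2-5* without WT a or WT b, and *Mef2c* without WT c. The cause was not tested. KO ranks of *Gata6* and *Irx4* were 5 to 6 and 5 to 6. By the longest transcript, ranks in WT were 1 for *Mef2a*, 3 for *Gata4*, 4 for *Gata6*, 5 for *Nkx2-5* and 6 for *Hand2*, and in KO 1 for *Mef2a*, 3 for *Gata4*, 4 for *Nkx2-5*, 7 for *Mef2c* and 8 for *Hand2*, which follows from the shorter lengths.

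No paired analysis was possible because column names of the deposited table carry no replicate numbers. Depth limited *Hand1*, with 96 to 140 counts a library.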
